A study of Mus musculus with 12 samples.

Results

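The genotype by diet interaction in gonadal white adipose tissue (GWAT) of mice was the difference between 2 differences, namely HoipA-KO minus WT on the high-fat diet (HFD) less HoipA-KO minus WT on the control diet (CD). It was estimated for every expressed gene from bulk RNA sequencing. A negative estimate, in log2 units, means that a gene was less high or lower in HoipA-KO relative to WT on HFD than on CD, and a positive estimate means the opposite. The same number is also the effect of HFD in HoipA-KO less the effect of HFD in WT. WT mice were Hoip fl/fl AdipoQ.Cre-, and HoipA-KO mice were Hoip fl/fl AdipoQ.Cre+, so that both genotypes carried the floxed alleles and only the second carried the Cre. The adiponectin promoter drives this Cre, which directs the deletion to mature adipocytes, so that macrophages, stromal cells and vascular cells were not its target. Male mice began CD (14% fat) or HFD (60% fat) at 6 weeks of age and stayed on it for 16 weeks, and their age at collection was 22 to 24 weeks. Each library held GWAT RNA pooled from 3 mice, with 4 groups of 3 libraries, and the labels give no strain. The comparison used 11 of the 12 libraries, since replicate 3 of WT CD was left out as in the comparisons that the authors deposited, and that library served as a check. Of 55281 annotated genes, 18427 passed the filter on low counts and were tested.

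HOIP, encoded by Rnf31, is the catalytic subunit of the linear ubiquitin chain assembly complex (LUBAC), which attaches linear ubiquitin chains to receptor complexes of the TNF pathway. These chains support NF-kB signalling and restrain death of the cell. In obese adipose tissue, macrophages gather around dying adipocytes in crown-like structures, take up lipid and express genes for phagocytosis, lysosomal digestion and matrix turnover. Mature adipocytes, in turn, express genes of lipid synthesis and storage and of mitochondrial metabolism, many of which fall in obesity.

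Between 30513500 and 60540260 reads were counted per library, so that 3 counts, taken here as the limit of detection, correspond to 0.0496 to 0.0983 CPM, the count relative to the scaled size of the library. Rnf31 had 17.8 to 22.5 CPM in all 11 libraries with no group apart (interaction 0.21, SE 0.18, adjusted p = 0.525), so its transcript level in whole tissue does not check the deletion. Adipoq, the marker gene of mature adipocytes, was present in every library, at 1658 to 3452 CPM in WT and 205 to 493 CPM in HoipA-KO. The 2 libraries of WT CD were less alike (Pearson's r of log2 CPM across genes 0.907) than replicates of the other groups (0.971 to 0.993). Replicate 2 of WT CD held 162 genes at over 8 times their level in every other library, and its 15 markers of epididymal epithelium summed to 15011 CPM, against 1314 CPM in replicate 1 of HoipA-KO HFD and at most 242 CPM elsewhere. Replicate 3 of WT CD, the library left out, had 929 such genes, and its 13 markers of testicular germ cells summed to 12620 CPM, against 510 CPM in replicate 2 and 21.1 CPM in replicate 1 of that group and at most 4.20 CPM elsewhere. The part of such transcripts in the results was not tested. Values with all 12 libraries are given for many, but not all, of the named calls that they change.

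Between the diets, the genotype effect differed for 721 genes, which is 3.91% of those tested (adjusted p under 0.05 with edgeR, Benjamini-Hochberg method). The estimate was negative for 660 of them (3.58% of genes tested) and positive for 61 (0.331%). Over all tested genes the median estimate was -0.01 and 49.4% of estimates were above 0. The median estimate of the negative genes was -2.61, or -2.58 with the 10 genes that were at 0 in every library of a group set at the limit of detection. That of the positive genes was 2.20, or 2.18 with 1 such gene at the limit. Genes coding for proteins made up 664 of the 721, and 57 were of other types.

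Most of the negative genes were low in WT CD and high in the other 3 groups. WT CD had the lowest mean in 654 of the 660, both WT CD libraries lay below all HoipA-KO CD libraries in 651, and the highest mean was that of HoipA-KO CD in 433, of HoipA-KO HFD in 148 and of WT HFD in 79. The median over these genes of the mean level per group was 3.80 CPM in WT CD, 20.7 CPM in WT HFD, 36.4 CPM in HoipA-KO CD and 33.9 CPM in HoipA-KO HFD. On the log2 scale, WT HFD had covered a median 71.7% of the distance from WT CD to HoipA-KO CD, with quartiles of 64.9% and 81.0%, while HoipA-KO HFD stood at 95.7%. On HFD the libraries of the genotypes overlapped in 289 of the 660 genes. These shapes describe genes chosen by the interaction test and carry no further test. The counts of libraries apart or overlapping were not made over all genes tested, so they have no share of all genes beside them.

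Read by genotype, 490 of the negative genes were higher in HoipA-KO on CD and not called on HFD, 139 were higher on both diets and by less on HFD, 13 were higher on CD and lower on HFD, 17 were not called on CD and lower on HFD, and 1 was called on neither. Of the positive genes, 56 were lower in HoipA-KO on CD and not called on HFD, 4 were lower on both diets, and 1 was not called on CD and higher on HFD. Read by diet, 658 of the 660 negative genes rose on HFD in WT and 59 of the 61 positive genes fell, and none of the 721 was called by diet in HoipA-KO. Over all genes tested, genotype gave 6947 calls on CD (37.7%, of which 18.9% of genes were higher and 18.8% lower in HoipA-KO) and 2179 on HFD (11.8%, with 4.2% higher and 7.62% lower), diet gave 2731 calls in WT (14.8%, with 9.35% higher and 5.47% lower on HFD), and diet in HoipA-KO gave 0, with 415 genes at an unadjusted p under 0.05 and a smallest adjusted p of 1 (edgeR). These comparisons share libraries, WT CD above all, and are not independent of each other or of the interaction. With DESeq2's Wald test the interaction gave 944 positive and 1470 negative genes of 17797 tested. With edgeR, 4228 of the 18427 genes had an unadjusted p under 0.05 in the interaction. Counts of these 2 kinds given below for lists are to be read against these shares of all genes.

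**Figure D1:**
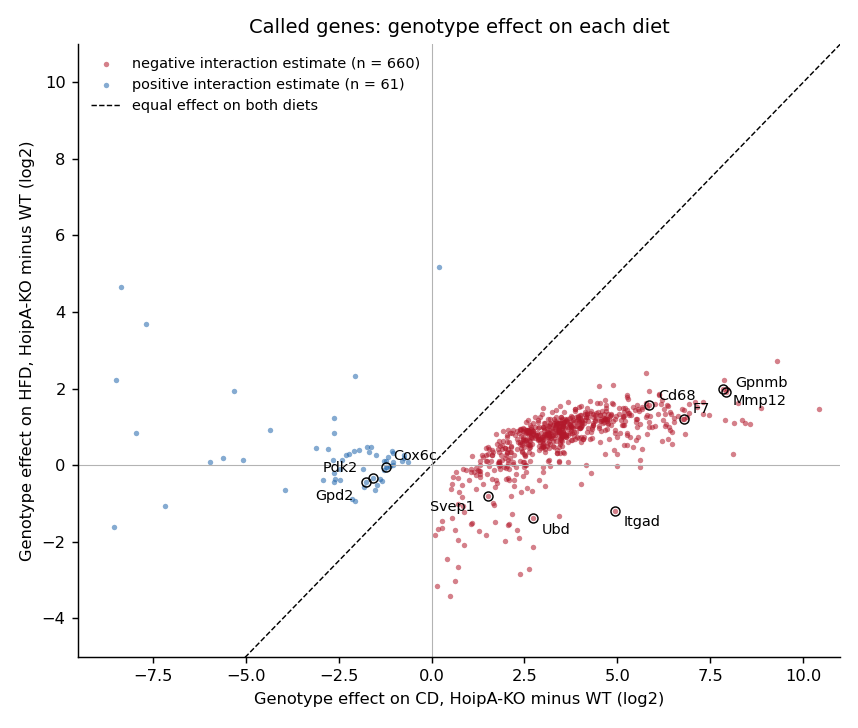
Each point is 1 of the 721 genes called in the interaction, with the genotype effect on CD on the horizontal axis and that on HFD on the vertical axis (HoipA-KO minus WT, log2). The 660 negative genes lie to the right of the dashed line of equal effects, most of them between 0 and 2 on the vertical axis, the 61 positive genes lie to its left, and 2 genes fall outside the axes.

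The number of calls depended on single libraries, while the directions held when 1 of the 11 libraries was left out but not all held with replicate 3 of WT CD. The smallest adjusted p was 0.0083, and 2 of the 721 genes were under 0.01 and 325 under 0.03. Leaving out replicate 2 of WT CD, replicate 2 of WT HFD, any replicate of HoipA-KO CD, or replicate 1 or 3 of HoipA-KO HFD left 0 positive and 1 to 4 negative calls. Without replicate 3 of WT HFD there were 6 and 220, without replicate 2 of HoipA-KO HFD 56 and 587, without replicate 1 of WT HFD 54 and 945, and without replicate 1 of WT CD 1788 and 1880. In each of these 11 fits at least 659 of the 660 negative and 60 of the 61 positive genes kept their sign, the others having failed the filter on low counts. These fits share most of their libraries with the fit that chose the genes, so the kept signs are no independent check. With all 12 libraries there were 14 positive and 488 negative calls (0.0775% and 2.7% of 18074 genes, together 2.78%), which included 13 of the 61 and 430 of the 660, and 39 of the 721 had an estimate of the opposite sign there. With replicates 1 and 3 as WT CD, 602 of the 660 negative genes kept their sign, and with replicates 2 and 3, 603 did. The positive genes with an estimate in these fits, 59 and 60, all kept theirs.

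The WT HFD pools differed among themselves. Replicate 1 was the lowest of the 3 in 556 and replicate 3 the highest in 570 of the 660 negative genes. The summed level of 16 genes of macrophage identity showed the same spread, with 920 and 673 CPM in WT CD, 2464, 4465 and 7310 CPM in WT HFD, 11658 to 14696 CPM in HoipA-KO CD and 9191 to 13884 CPM in HoipA-KO HFD. In whole tissue, more cells of a type and more RNA per cell cannot be told apart, and neither can macrophage content and the level of a gene within macrophages.

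Genes of lipid-associated macrophages, the cells of crown-like structures, had the lowest median estimate among the lists of macrophage genes. Of 14 tested, 8 were called, all negative, and the median was -3.13 against -0.01 over all genes. Gpnmb, a transmembrane glycoprotein of lipid-laden macrophages, had 25.6 and 31.7 CPM in WT CD, 347, 984 and 2381 CPM in WT HFD, 6272, 8861 and 5650 CPM in HoipA-KO CD and 2734, 7981 and 3256 CPM in HoipA-KO HFD. HoipA-KO was higher on both diets in every library, but the gap was 7.92 on the log2 scale on CD and 1.91 on HFD (adjusted p = 0.0797 for the latter), which gave an interaction of -6.01 (SE 1.05, adjusted p = 0.0256, edgeR). Trem2, the lipid-sensing receptor of these cells, had 8.43 and 7.43 CPM in WT CD, 57.6, 145 and 267 CPM in WT HFD, 505, 581 and 662 CPM in HoipA-KO CD and 361, 615 and 542 CPM in HoipA-KO HFD. No library of one genotype overlapped the other on either diet, and the estimate was -4.50 (SE 0.72, adjusted p = 0.0256). Itgax, which encodes the integrin CD11c, had 6.51 and 6.21 CPM in WT CD, 61.6, 134 and 258 CPM in WT HFD, 565, 605 and 483 CPM in HoipA-KO CD and 219, 604 and 336 CPM in HoipA-KO HFD, so that 1 pool of HoipA-KO HFD lay below the highest of WT HFD. Its estimate was -5.09 (SE 0.79, adjusted p = 0.0256). The macrophage elastase Mmp12 had an estimate of -5.86 (SE 1.35, adjusted p = 0.0468), and its HoipA-KO HFD pools ranged from 600 to 4777 CPM. The other called members were Atp6v0d2, Ms4a7, Lgals3 and Cd9.

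General macrophage genes were called in 11 of 16 cases, with a median of -2.57. Cd68, a lysosomal glycoprotein of macrophages, had 23.5 and 20.3 CPM in WT CD, 145, 328 and 593 CPM in WT HFD, 1112, 1374 and 1318 CPM in HoipA-KO CD and 694, 1405 and 1061 CPM in HoipA-KO HFD. The genotypes were apart on both diets, by 5.86 on CD and 1.57 on HFD, and the estimate was -4.29 (SE 0.70, adjusted p = 0.0256). Spi1, which encodes the macrophage transcription factor PU.1 (-3.28, SE 0.56), the signalling adaptor Tyrobp (-3.53, SE 0.64), the adaptor Fcer1g (-2.44, SE 0.45) and Adgre1, the gene of the F4/80 antigen (-4.0, SE 0.82), were also called. Genes of resident perivascular macrophages differed from this picture in their values, with a median of -0.60 and 0 of 13 called by edgeR, 2 at an unadjusted p under 0.05 and 2 called by DESeq2. Their share at an unadjusted p under 0.05 was below that of all genes, and their share by DESeq2 was near it. Mrc1 had an estimate of -1.85 (adjusted p = 0.099), and Cd163, a scavenger receptor for haemoglobin, had 0.56 (adjusted p = 0.28), with 27.7 to 55 CPM in WT and 7.1 to 14.3 CPM in HoipA-KO.

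**Figure D2:**
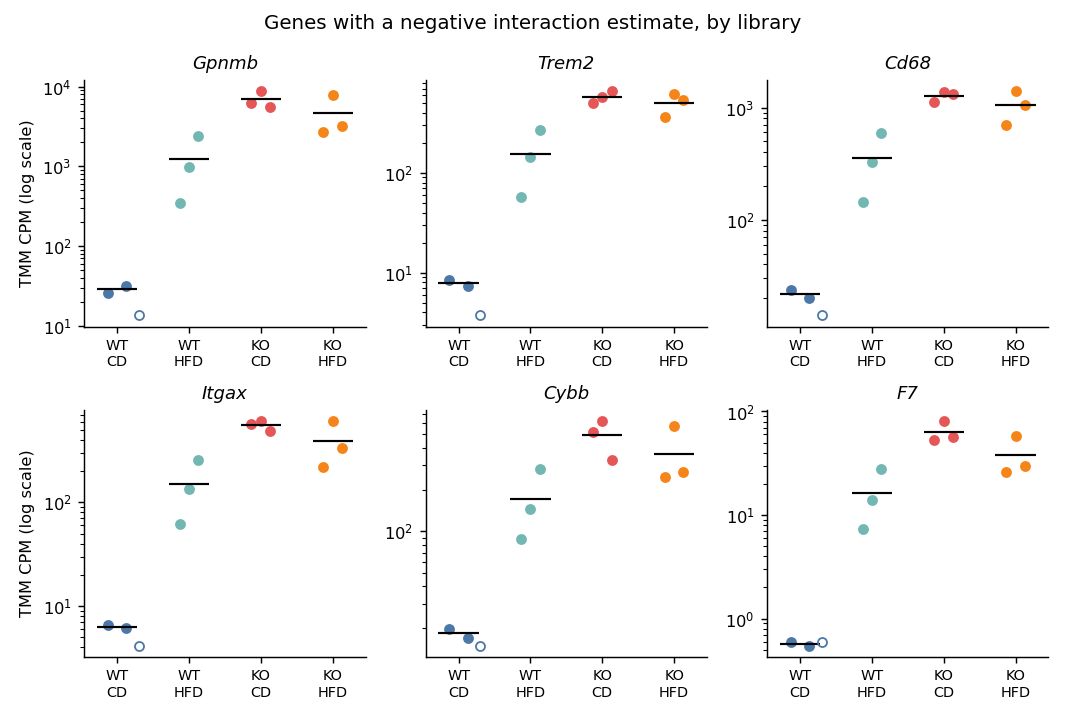
Levels of 6 genes by group in TMM CPM on log axes, where filled points are the 11 libraries, the open point is replicate 3 of WT CD and the horizontal lines are group means. In each panel the mean of WT CD is lowest, WT HFD is spread over its 3 pools, and the means of both HoipA-KO groups are highest. Gpnmb, for example, had 25.6 and 31.7 CPM in WT CD against 5650 to 8861 CPM in HoipA-KO CD. For Itgax, Cybb and F7, pools of HoipA-KO HFD lie below the highest WT HFD pool.

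Promoter sequence is shown for 5 negative genes that moved together. All 5 hold a match to either of the 2 motifs marked, so they do not stand for the negative genes at large. Both motifs were more frequent among promoters of negative genes than among those of all tested genes. The windows are the 250 bases before the RefSeq transcription start in GRCm38.p6, printed 5′ to 3′ on the strand of the gene. The capitals mark either the AP-1 site (TGANTCA) or the PU.1 site (GAGGAAGT, here on the opposite strand). Itgax lies at chr7:128129300-128129549 (+), Trem2 at chr17:48346151-48346400 (+), Cd68 at chr11:69666171-69666420 (-), Mmp12 at chr9:7344147-7344396 (+) and Tnip3, an NF-kB-induced binding partner of A20, at chr6:65590148-65590397 (+).
Itgax: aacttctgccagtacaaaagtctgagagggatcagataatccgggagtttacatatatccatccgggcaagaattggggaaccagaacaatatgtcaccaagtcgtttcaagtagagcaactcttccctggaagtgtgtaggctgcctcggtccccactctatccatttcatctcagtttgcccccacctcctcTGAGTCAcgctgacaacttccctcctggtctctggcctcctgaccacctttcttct
Trem2: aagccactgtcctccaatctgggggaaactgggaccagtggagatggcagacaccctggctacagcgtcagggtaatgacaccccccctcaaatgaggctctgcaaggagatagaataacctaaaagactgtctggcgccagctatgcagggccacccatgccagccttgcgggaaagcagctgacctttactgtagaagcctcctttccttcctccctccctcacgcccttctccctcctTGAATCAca
Cd68: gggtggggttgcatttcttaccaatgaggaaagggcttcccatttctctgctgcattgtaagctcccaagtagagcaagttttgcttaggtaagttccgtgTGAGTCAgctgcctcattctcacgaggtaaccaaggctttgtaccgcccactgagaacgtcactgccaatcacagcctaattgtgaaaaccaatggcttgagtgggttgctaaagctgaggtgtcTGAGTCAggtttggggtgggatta
Mmp12: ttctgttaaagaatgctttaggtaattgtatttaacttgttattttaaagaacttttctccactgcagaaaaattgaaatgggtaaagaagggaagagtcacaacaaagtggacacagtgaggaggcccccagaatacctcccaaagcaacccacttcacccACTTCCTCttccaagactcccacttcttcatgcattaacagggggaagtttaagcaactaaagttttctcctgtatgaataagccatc
Tnip3: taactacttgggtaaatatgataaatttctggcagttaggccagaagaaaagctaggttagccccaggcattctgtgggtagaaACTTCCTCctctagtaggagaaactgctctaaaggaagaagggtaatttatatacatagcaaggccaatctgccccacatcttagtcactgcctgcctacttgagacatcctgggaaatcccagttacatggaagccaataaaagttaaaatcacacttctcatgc
The AP-1 site began 56 bases before the start in Itgax, 9 bases before it in Trem2 and 149 and 24 bases before it in Cd68, and the PU.1 site began 88 bases before it in Mmp12 and 166 in Tnip3. On either strand, the AP-1 site was in 50 of the 498 negative genes with a promoter sequence (10.0%), in 1 of 47 positive genes (2.13%) and in 4.95% of the 13019 tested genes with one. The PU.1 site was in 31 negative genes (6.22%), in 0 positive genes and in 2.5% of tested genes. Over all 27025 genes with a promoter sequence, tested or not, the AP-1 site was in 6.87% and the PU.1 site in 2.44%. Of the other motifs searched, the E-box CACGTGA was in 3.82% of negative and 4.51% of tested genes, the ETS site CCGGAAG in 6.02% and 12%, and CCAAT in 32.3% and 36.0%. A match of letters is no evidence of binding, and no test was made.

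Spi1, which encodes PU.1, was itself called. Any link between the level of a factor and the genes that hold its motif was not tested. Of 17 immediate early genes, 4 had estimates above 0 and the median was -0.58. The 3 called were the AP-1 family genes Atf3, Junb and Fosl1, with estimates of -4.31, -1.46 and -3.53. Fosl1 was at 0.127 to 7.13 CPM, and it was not called with all 12 libraries (-2.0, adjusted p = 0.268). Irf8, Irf5 and Runx1, transcription factors of the myeloid lineage that were picked after their values were seen, had -2.21 (SE 0.31), -2.69 (SE 0.46) and -2.41 (SE 0.40). Irf8 had 11.6 and 10.5 CPM in WT CD, 37.5, 53.7 and 67.3 CPM in WT HFD, 80.1 to 85.8 CPM in HoipA-KO CD and 72.1 to 98.9 CPM in HoipA-KO HFD, and it did not overlap between genotypes on either diet.

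For the phagocyte NADPH oxidase, which produces superoxide, the 5 genes described here were called and negative, with a median of -3.05, in a family assembled by symbol after the results were known. Cybb, the catalytic subunit, had 19.8 and 17.0 CPM in WT CD, 87.6, 146 and 279 CPM in WT HFD, 523, 623 and 328 CPM in HoipA-KO CD and 245, 570 and 268 CPM in HoipA-KO HFD. Its genotypes overlapped on HFD but not on CD, and the estimate was -3.66 (SE 0.72, adjusted p = 0.0301). Its membrane partner Cyba had -2.58, the cytosolic subunits Ncf1 and Ncf4 had -3.05 and -3.20, and the GTPase Rac2 had -2.70. All 5 estimates were below 0 in every alternative fit, and all 5 remained called with 12 libraries.

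Receptors of innate immunity were called in groups. Of 12 Toll-like receptors tested, 6 were negative, namely Tlr1, Tlr2, Tlr6, Tlr7, Tlr8 and Tlr13, which sense bacterial lipopeptides or microbial RNA. Tlr13 had 3.09 and 3.29 CPM in WT CD, 32.6, 65.8 and 137 CPM in WT HFD, 172 to 333 CPM in HoipA-KO CD and 121 to 316 CPM in HoipA-KO HFD (-4.95, SE 0.84, adjusted p = 0.0256). Of 12 receptors of the CD300 family, 6 were negative, among them Cd300lb (-4.72) and Cd300a (-4.16), and of 12 leukocyte immunoglobulin-like and PIR receptors 6 were negative, among them Lilrb4b (-3.91) and Pirb (-3.50). Members of these families resemble each other in sequence, so the counting could have split reads between them. The integrins Itgb2, Itgam, Itga4, Itgad, Itgax and Itgb3 were the 6 negative ones of 30 tested. Itgad, the alpha D subunit of leukocyte integrins, had the most negative estimate of the 15 genes named by rule, -6.12 (SE 1.14, adjusted p = 0.0281), and rose from 0.309 and 0.211 CPM in WT CD to 5.64, 24.8 and 48.2 CPM in WT HFD. It had 5.36 to 11.4 CPM in HoipA-KO CD and 6.05 to 15.5 CPM in HoipA-KO HFD. With replicate 3 of WT CD, which had 7.31 CPM, its estimate was -2.79 (adjusted p = 0.345).

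Fusion and digestion by macrophages were represented by 5 of 10 genes of the osteoclast-like programme, with a median of -2.38. Ocstamp, a membrane protein needed for fusion into multinucleated cells, had 0.119 and 0.211 CPM in WT CD, 1.43 to 1.96 CPM in WT HFD, 4.96 to 7.80 CPM in HoipA-KO CD and 2.23 to 5.16 CPM in HoipA-KO HFD (-4.10, SE 0.62, adjusted p = 0.0256). The receptor of RANK ligand, Tnfrsf11a, had -2.99 (SE 0.52), the collagen-degrading protease Ctsk had -3.36 (SE 0.71), the proton pump subunit Atp6v0d2 had -5.04 (SE 0.93) and the integrin Itgb3 had -1.78 (SE 0.42, adjusted p = 0.0499, and 0.056 with 12 libraries). Lysosomal genes were called in 1 of 25 cases, a share near that of all genes, with a median of -1.30, 17 at an unadjusted p under 0.05 and 13 called by DESeq2. That gene was the protease Ctss, with 52.0 and 49.3 CPM in WT CD, 296, 509 and 902 CPM in WT HFD, 2029 to 2689 CPM in HoipA-KO CD and 1184 to 2491 CPM in HoipA-KO HFD (-3.96, SE 0.64, adjusted p = 0.0256). The acid lipase Lipa (-3.17, adjusted p = 0.0563) and the protease Ctsz (-1.84, adjusted p = 0.0506) were just outside the threshold, and both passed it with 12 libraries, at 0.0445 and 0.0465.

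Among secreted signals, 5 of 23 chemokines and 2 of 13 cytokines were negative, with medians of -1.03 and -1.28. Ccl2, which attracts monocytes, had 3.94 and 2.13 CPM in WT CD, 24.5, 31.8 and 21.5 CPM in WT HFD, 24.7, 49.4 and 26.1 CPM in HoipA-KO CD and 25.6, 38.9 and 31.9 CPM in HoipA-KO HFD. Its libraries overlapped across those 3 groups, and the estimate was -3.15 (SE 0.51, adjusted p = 0.0256). Ccl3 had -4.25, Ccl9 -3.41, Ccl6 -2.73 and Ccl22 -2.18, and the last was not called with 12 libraries (-1.42, adjusted p = 0.235). Il1rn, the antagonist of the interleukin-1 receptor, had 0.499 and 1.46 CPM in WT CD, 27.6, 42.5 and 60.7 CPM in WT HFD, 85.0 to 239 CPM in HoipA-KO CD and 78.6 to 193 CPM in HoipA-KO HFD (-5.63, SE 0.90, adjusted p = 0.0256). Tnf was low throughout, at 0.166 and 0.38 CPM in WT CD, 0.95 to 1.55 CPM in WT HFD, 2.90 to 4.25 CPM in HoipA-KO CD and 2.08 to 2.58 CPM in HoipA-KO HFD (-2.73, SE 0.54, adjusted p = 0.0301).

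Genes of NF-kB signalling and of LUBAC had smaller median estimates in size than the chemokines and cytokines above, while inflammasome genes had a larger one. Of 14 genes of NF-kB subunits, inhibitors and feedback, 3 were negative, with a median of -0.60. The kinase Ikbke (-1.76, SE 0.34, adjusted p = 0.0287), the inhibitor Nfkbie (-1.18, SE 0.25, adjusted p = 0.0357) and the subunit Rel (-1.80, SE 0.38, adjusted p = 0.036) were called, and of these Nfkbie and Rel were not called with 12 libraries (0.057 and 0.0707). Of 18 genes of LUBAC and the death receptor complex, 1 was negative, a share near the 3.58% of all genes tested. That gene was Ripk3, the kinase of necroptosis, with 4.35 and 4.82 CPM in WT CD, 9.47 to 15.5 CPM in WT HFD, 20.4 to 28.2 CPM in HoipA-KO CD and 18.7 to 25.8 CPM in HoipA-KO HFD (-1.47, SE 0.32, adjusted p = 0.0403). Its genotypes did not overlap on either diet. Casp8 (-0.51), Ripk1 (-0.56) and Mlkl (-0.96) had adjusted p of 0.27, 0.347 and 0.256. In the inflammasome list 3 of 11 were negative, with a median of -1.61, and Casp1, the protease that activates interleukin-1 beta, had 10.2 and 7.67 CPM in WT CD, 28 to 53.1 CPM in WT HFD, 74.2 to 102 CPM in HoipA-KO CD and 52.8 to 85.1 CPM in HoipA-KO HFD (-2.49, SE 0.40, adjusted p = 0.0256). Aim2, a sensor of cytosolic DNA, had -2.26, and Nlrc4 had -2.66 but was not called with 12 libraries (adjusted p = 0.209).

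In the complement system 5 of 15 genes were negative, with a median of -1.47. The receptors C3ar1 (-3.93, SE 0.68) and C5ar1 (-2.96, SE 0.67), the central component C3 (-1.68, SE 0.35), C1qb (-2.21, SE 0.51) and the stabilising factor Cfp (-1.50, SE 0.35) passed the test. C3 had 480 and 344 CPM in WT CD, 1135 to 1438 CPM in WT HFD, 1213 to 1984 CPM in HoipA-KO CD and 1562 to 1736 CPM in HoipA-KO HFD. Of 8 coagulation factors, assembled by symbol after the results were known, F7, F9 and F10, serine proteases of the clotting cascade, were negative. The median of the 8 was -0.18, 2 estimates were above 0 and 3 genes had an unadjusted p under 0.05. F7 had 0.594 and 0.549 CPM in WT CD, 7.27, 14.0 and 27.6 CPM in WT HFD, 53, 80.6 and 56.9 CPM in HoipA-KO CD and 26.0, 58.2 and 29.9 CPM in HoipA-KO HFD (-5.57, SE 0.78, adjusted p = 0.0256). F10 had -4.60 (SE 0.61), and F9 was at 0 counts in both WT CD libraries and at 0.295 to 1.11 CPM elsewhere, so its fitted estimate has no interpretable size.

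Of 20 collagens and matrix genes, 17 rose on HFD in WT and 6 were negative in the interaction, with a median of -1.72. Fn1, encoding fibronectin, had 122 and 86.7 CPM in WT CD, 454, 809 and 774 CPM in WT HFD, 514 to 716 CPM in HoipA-KO CD and 568 to 646 CPM in HoipA-KO HFD. It overlapped between genotypes on HFD only, and the estimate was -2.71 (SE 0.38, adjusted p = 0.0256). Timp1, an inhibitor of matrix proteases, had -3.50 (SE 0.52) and the fibrillar collagens Col1a1 and Col1a2 had -1.91 (SE 0.42) and -1.67 (SE 0.38). Of 17 matrix proteases and their inhibitors 4 were negative, including the sheddase Adam8 (-5.34, SE 0.87).

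Proliferation genes were called in 18 of 30 cases, with a median of -2.21, but this depended on which WT CD libraries were used. Cdk1, the kinase of mitotic entry, had 2.87 and 2.47 CPM in WT CD, 11, 19.2 and 21.3 CPM in WT HFD, 22.8 to 39.5 CPM in HoipA-KO CD and 24.6 to 36.1 CPM in HoipA-KO HFD (-2.67, SE 0.43, adjusted p = 0.0256). Aurkb, a mitotic kinase, had -2.55 and Bub1, of the spindle checkpoint, had -3.42. In replicate 3 of WT CD, where testicular germ cell markers were high, Cdk1 had 20.2 CPM and Bub1 51.3 CPM, and with that library the median of the list was 0.00 and 1 gene was called. That gene was Tk1, the thymidine kinase of S phase, at 1.35 CPM in that library and 1.43 and 1.44 CPM in the other 2, with -2.91 over 11 and -2.92 over 12 libraries (adjusted p = 0.0256 and 0.0131). CCAAT was in 21 of the 25 promoters of this list (84.0%) against 36.0% of those tested, and Cdk1, at chr10:69352913-69353162 (-) in GRCm38.p6, is shown as the example, with CCAAT on the opposite strand in capitals.
Cdk1: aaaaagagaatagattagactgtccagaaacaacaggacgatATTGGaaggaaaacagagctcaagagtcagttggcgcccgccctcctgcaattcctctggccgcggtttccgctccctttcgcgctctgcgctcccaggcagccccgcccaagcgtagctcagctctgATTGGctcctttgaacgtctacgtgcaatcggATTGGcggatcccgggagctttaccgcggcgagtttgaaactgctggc
The matches in Cdk1 began 208, 80 and 48 bases before the start.

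**Figure D3:**
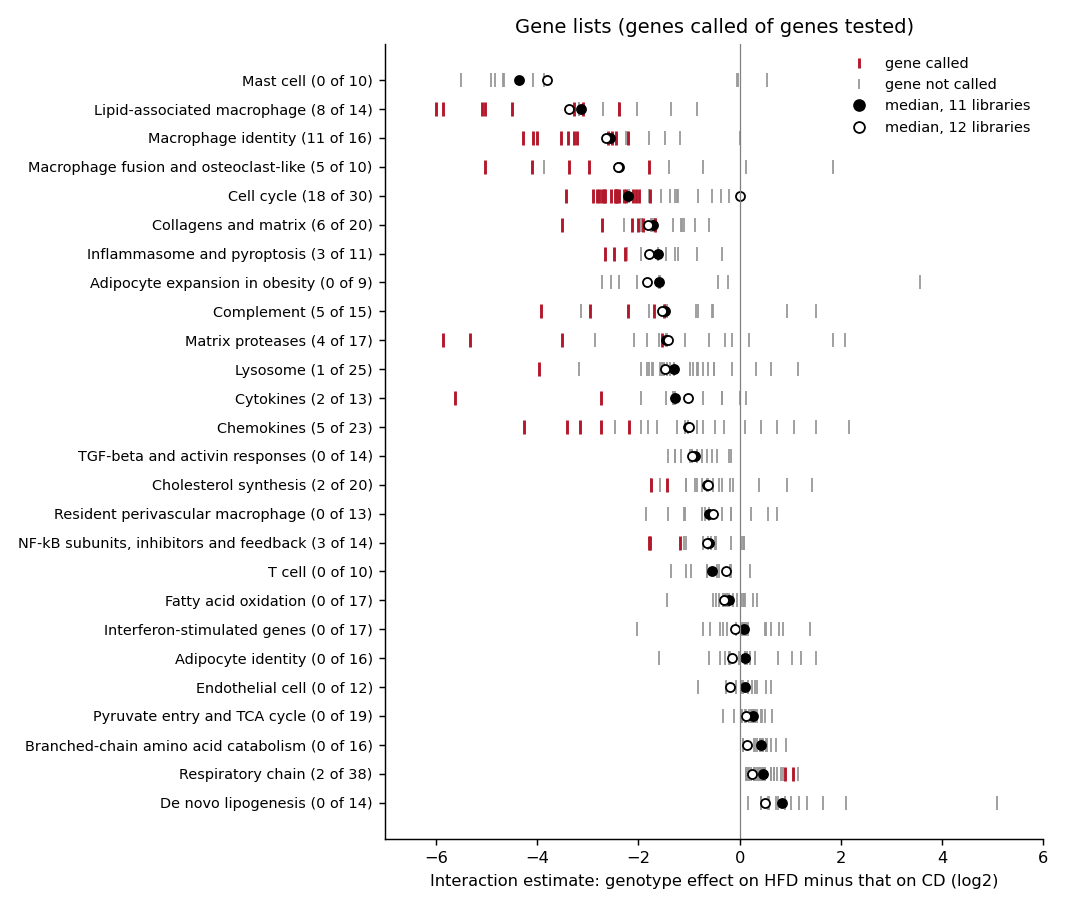
Each row is a gene list, with 1 tick per gene tested at its interaction estimate (log2), in red where the gene was called, and with the median over 11 libraries (filled) and 12 libraries (open). Medians of the macrophage lists lie to the left and those of the respiratory chain and de novo lipogenesis to the right of 0, the cell cycle median moves from -2.21 to 0.00 with the library left out, and 1 gene lies outside the axis.

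Among the positive genes, WT CD had the highest mean in 60 of the 61, and WT HFD had covered a median 94.3% of the log2 distance from WT CD to HoipA-KO CD. In 27 of the 61 the 2 WT CD libraries differed by more than 2 times, against 30 of the 660 negative genes, and 12 of the 61 averaged under 1 CPM. Several names among them are of genes known from testis or epididymis, such as Crisp1, Adam3, Tex33 and Ddx25, and these 4 were not called with 12 libraries. The fitted estimates of such genes, which were near 0 in most libraries, have no interpretable size. Without all genes whose WT CD libraries differed by more than 2 times, 34 positive and 630 negative calls remained. The genes named next are among the 15 positive genes chosen by rule, which had a mean of at least 10 CPM and WT CD libraries at most 2 times apart.

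Suclg2, a subunit of succinyl-CoA synthetase in the TCA cycle, had 96.9 and 103 CPM in WT CD, 51.7, 50.3 and 44.9 CPM in WT HFD, 39.0, 35.1 and 33.9 CPM in HoipA-KO CD and 35.6, 32.5 and 35.2 CPM in HoipA-KO HFD. It was lower in HoipA-KO on both diets without overlap (-1.47 on CD and -0.51 on HFD, log2), and the interaction was 0.97 (SE 0.16, adjusted p = 0.0256). Pdk2, a kinase that inhibits pyruvate dehydrogenase, had 122 and 136 CPM in WT CD, 63.4, 59.8 and 53.8 CPM in WT HFD, 49.1, 30.4 and 50.3 CPM in HoipA-KO CD and 54.5, 44.3 and 42.7 CPM in HoipA-KO HFD, which overlapped on HFD (1.25, SE 0.29, adjusted p = 0.0466). Gpd2, the mitochondrial glycerol-3-phosphate dehydrogenase, fell from 68.6 and 53.9 CPM in WT CD to 20.9 to 27.6 CPM in WT HFD, with 13.8 to 21.9 CPM in HoipA-KO (1.33, SE 0.30, adjusted p = 0.0426).

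Enzymes and proteins of lipid metabolism or droplets among the 15, grouped after their values were seen, were Gpat4, a glycerol-3-phosphate acyltransferase (0.93, SE 0.20), Kdsr, of ceramide synthesis (1.25, SE 0.24), Plpp6, a lipid phosphatase (1.24, SE 0.28), and Tmem159, a lipid droplet protein (1.35, SE 0.22). Pex11a, of peroxisome division, had 62.3 and 71.7 CPM in WT CD, 40.4, 37.0 and 31.4 CPM in WT HFD, 14.5 to 17.3 CPM in HoipA-KO CD and 16.3 to 20.4 CPM in HoipA-KO HFD (1.13, SE 0.21, adjusted p = 0.0281), and stayed lower in HoipA-KO on both diets. Others were Phpt1 (1.38, SE 0.30), Cox6c (1.18, SE 0.27), Smim26 (1.15, SE 0.23), Ndufa5 (1.05, SE 0.21), Osbpl1a (1.01, SE 0.21) and Mapk8ip1 (1.00, SE 0.19). With all 12 libraries Phpt1 (adjusted p = 0.0465), Pdk2 (0.0442), Osbpl1a (0.0298) and Mapk8ip1 (0.0489) were called and the others named here were not. In replicate 3 of WT CD, Gpd2 stood at 313 CPM and Gpat4 at 488 CPM, above all other libraries. Suclg2 (44.8 CPM), Kdsr (30.2 CPM), Plpp6 (40.3 CPM), Cox6c (149 CPM) and Pex11a (34.4 CPM) lay there within the range of the 9 libraries of the other groups, and Tmem159 (24.3 CPM) and Smim26 (5.47 CPM) lay below it.

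**Figure D4:**
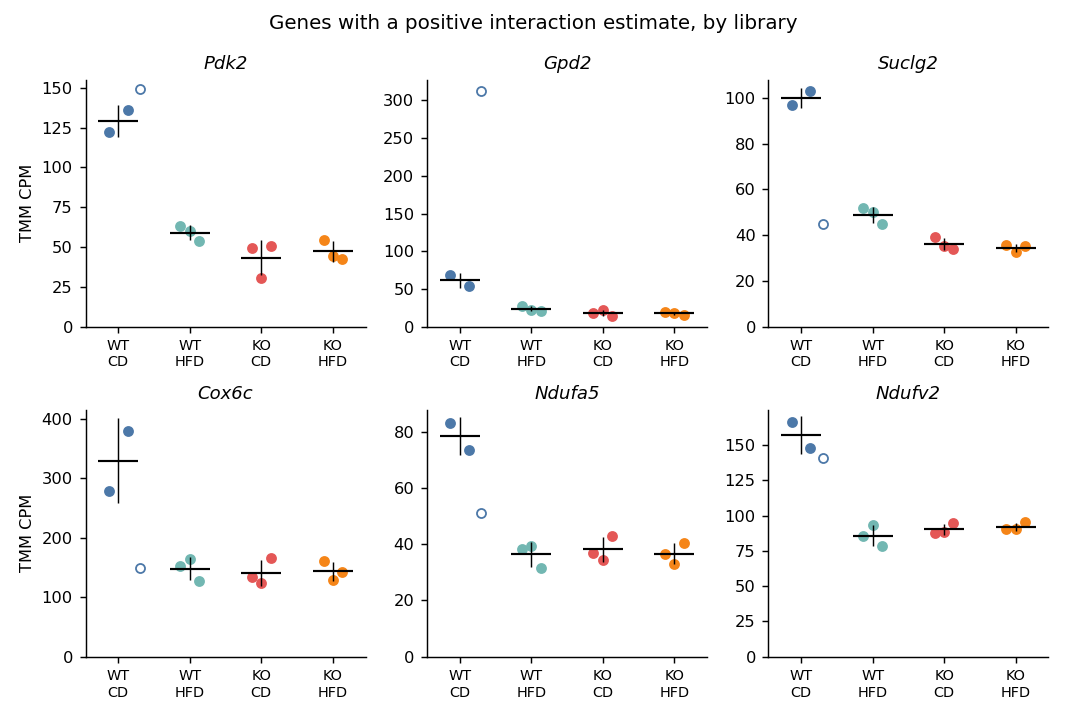
Levels of 6 genes by group in TMM CPM on axes from 0, with filled points for the 11 libraries, an open point for replicate 3 of WT CD, horizontal lines for group means and vertical lines for the SD. The filled WT CD points lie above the other 3 groups in each panel, as for Suclg2 with 96.9 and 103 CPM against 32.5 to 51.7 CPM in the other 9 libraries, while the open point of Suclg2, at 44.8 CPM, lies among those, and with it Suclg2 was not called (0.70, adjusted p = 0.311).

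Respiratory chain genes had estimates on one side of 0 that were mostly not called. All 38 tested were above 0, with a median of 0.46, and 2 were called. Ndufv2, a core subunit of complex I, had 166 and 148 CPM in WT CD, 85.7, 93.0 and 78.1 CPM in WT HFD, 87.8, 88.1 and 94.8 CPM in HoipA-KO CD and 90.2, 90.5 and 95.1 CPM in HoipA-KO HFD. Its 3 groups other than WT CD overlapped, and the estimate was 0.90 (SE 0.17, adjusted p = 0.0281), and 0.86 with 12 libraries (adjusted p = 0.0367). Ndufa5, an accessory subunit of complex I, had 83.0 and 73.5 CPM in WT CD and 31.4 to 43.0 CPM in all other libraries (1.05, SE 0.21, adjusted p = 0.0301). Of all 37 subunits of complex I found by symbol, 37 were above 0, with a median of 0.61, and Ndufa5, Ndufa6 and Ndufv2 were called, of which Ndufa5 and Ndufa6 were not called with 12 libraries (adjusted p = 0.13 and 0.206). Complex III had 9 of 9 above 0 with 0 called by edgeR, 3 at an unadjusted p under 0.05 and 2 called by DESeq2, and complex IV had 15 of 17 above 0 with Cox6c called. The summed level of the respiratory chain list was 10442 and 8197 CPM in WT CD, 5968 to 7445 CPM in WT HFD, 5135 to 6402 CPM in HoipA-KO CD and 5135 to 5729 CPM in HoipA-KO HFD. It was 5228 CPM in replicate 3 of WT CD, and with replicates 2 and 3 as WT CD only 15 of the 38 were above 0, with a median of -0.06.

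Of 16 genes of adipocyte identity, 0 were called by edgeR (11 or 12 libraries) or DESeq2 and 1 had an unadjusted p under 0.05. The median was 0.11 (from -0.78 without replicate 1 to 0.63 without replicate 2 of WT CD). It was -0.16 with 12 libraries and -0.81 with replicates 2 and 3 as WT CD. Of the 16, 15 were lower in HoipA-KO on CD and 15 on HFD. Cfd, encoding adipsin, had 8693 and 4149 CPM in WT CD, 348 to 1102 CPM in WT HFD, 21.7 to 101 CPM in HoipA-KO CD and 10.1 to 37.7 CPM in HoipA-KO HFD. The groups did not overlap apart from those of HoipA-KO, and the interaction was 1.51 (SE 0.99, adjusted p = 0.398). Lep, encoding leptin, had 2088 and 556 CPM in WT CD, 3073 to 5291 CPM in WT HFD, 834 to 1025 CPM in HoipA-KO CD and 548 to 1304 CPM in HoipA-KO HFD, with an interaction of -1.60 (SE 0.71, adjusted p = 0.217). Of 14 genes of de novo lipogenesis all were above 0 with a median of 0.83, and 0 were called by edgeR, 6 had an unadjusted p under 0.05 and 5 were called by DESeq2. Their median was 0.50 with 12 libraries and 0.16 with replicates 2 and 3 as WT CD. Among the 14 were Acaca, the acetyl-CoA carboxylase (1.34, SE 0.38, adjusted p = 0.0859, and 0.281 with 12 libraries), and Fads1, a fatty acid desaturase (1.65, SE 0.39, adjusted p = 0.0506, and 0.193 with 12 libraries). Of 16 genes of branched-chain amino acid catabolism all were above 0 with a median of 0.42. That median was 0.14 with 12 libraries. Of these 16, 0 were called by edgeR, 3 were at an unadjusted p under 0.05 and 1 was called by DESeq2. Their shares at an unadjusted p under 0.05 and by DESeq2 were below those of all genes.

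A smaller set of 30 negative genes was lower in HoipA-KO than in WT on HFD, and 13 of these were higher on CD. They rose on HFD in WT above all other groups. Ubd, a ubiquitin-like modifier induced by TNF and interferon, had 5.65 and 6.34 CPM in WT CD, 135, 231 and 224 CPM in WT HFD, 38.5, 34.3 and 47.1 CPM in HoipA-KO CD and 96.4, 38.7 and 93.4 CPM in HoipA-KO HFD. All 3 WT HFD pools were above every other library, and the estimate was -4.10 (SE 0.53, adjusted p = 0.0256). Svep1, an extracellular adhesion protein, had 52.0 and 30.7 CPM in WT CD, 194, 196 and 196 CPM in WT HFD, 117, 132 and 108 CPM in HoipA-KO CD and 106, 128 and 102 CPM in HoipA-KO HFD (-2.33, SE 0.29, adjusted p = 0.0256). Hdac9, a histone deacetylase, had 4.70 and 4.54 CPM in WT CD, 20.6 to 21.7 CPM in WT HFD and 6.19 to 9.60 CPM in HoipA-KO (-1.94, SE 0.26, adjusted p = 0.0256). Hmcn2 (-3.0, SE 0.50), Ccn5 (-3.63, SE 0.59) and the predicted gene Gm28187 (-4.24, SE 0.68), which is not protein-coding, also had their lowest mean in WT CD and their highest in WT HFD. Gm28187 was near the limit of detection in WT CD, at 0.119 and 0.0634 CPM, and at 0.269 to 1.93 CPM elsewhere, so the size of its estimate is uncertain.

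Cholesterol synthesis contributed Hmgcs1 and Dhcr7, the 2 genes called of 20, with a list median of -0.65. Hmgcs1, the synthase of the early pathway, had 113 and 104 CPM in WT CD, 355, 396 and 298 CPM in WT HFD, 129, 172 and 94.4 CPM in HoipA-KO CD and 149, 102 and 129 CPM in HoipA-KO HFD. WT HFD lay above all other libraries, and the estimate was -1.74 (SE 0.35, adjusted p = 0.032). Dhcr7, the last enzyme of the pathway, had 16.2 and 15.3 CPM in WT CD and 34.7 to 57.9 CPM in the other 9 libraries (-1.44, SE 0.25, adjusted p = 0.0256). Genes of adipocyte expansion in obesity had a median of -1.60, with 0 of 9 called by edgeR, 6 at an unadjusted p under 0.05 and 4 called by DESeq2. Peg3, an imprinted gene, came nearest, with 22.8 and 12 CPM in WT CD, 226, 96.6 and 81.0 CPM in WT HFD and 14.0 to 28.6 CPM in HoipA-KO (-2.72, SE 0.65, adjusted p = 0.0504, and 0.0475 with 12 libraries).

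**Figure D5:**
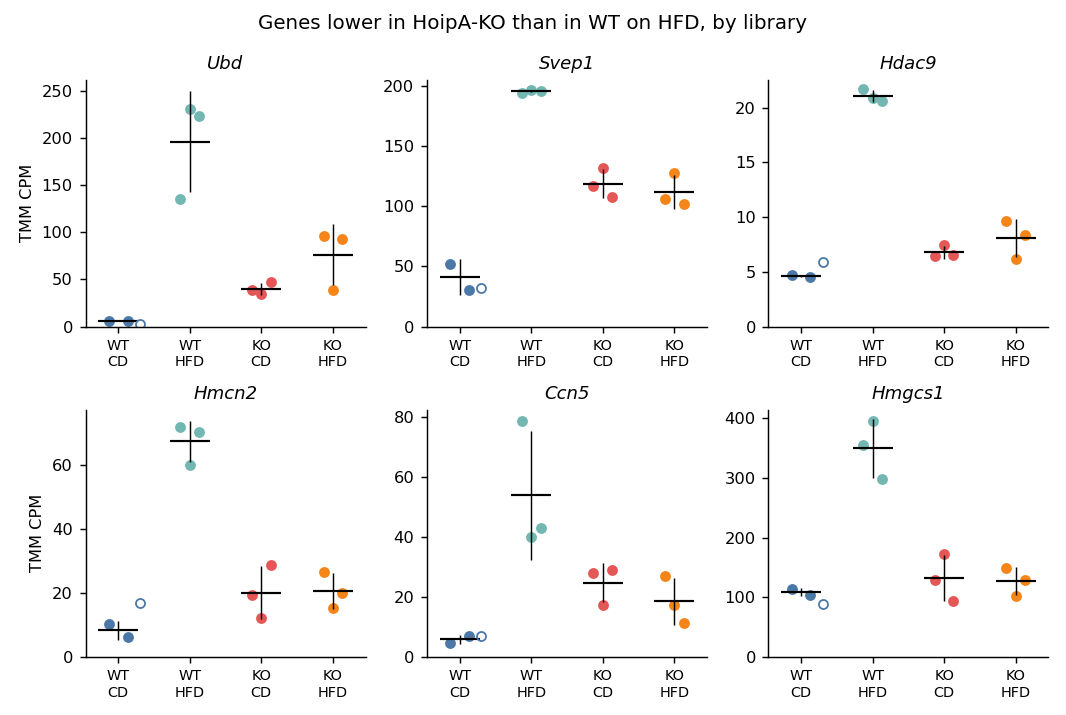
Levels of 6 genes by group in TMM CPM on axes from 0, with filled points for the 11 libraries, an open point for replicate 3 of WT CD, horizontal lines for means and vertical lines for the SD. WT HFD is the highest group in each panel, as for Hmgcs1 with 298 to 396 CPM against 94.4 to 172 CPM in HoipA-KO.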

How the data were processed

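Bulk polyA RNA of GWAT, pooled from 3 mice per library, was sequenced for 12 libraries. Per the labels, the authors trimmed reads with Trim Galore 0.6.7 and used STAR 2.7.10a and Salmon 1.5.2 with GRCm38, and they deposited estimated counts (expected counts) per gene without normalization. The methods name a human assembly, while the identifiers are of mouse genes. The authors' comparison tables were not used, and some genes are not reported here.

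Estimated counts were rounded, filtered with filterByExpr, scaled by TMM and fitted with edgeR 4.0.16 (R 4.3.3, prior count 0.125) as 1 model of the 4 groups over 11 libraries, tested by the quasi-likelihood test with Benjamini-Hochberg adjustment at 0.05 within each of 5 comparisons. A called gene is one past that threshold. CPM are TMM-scaled over 11 libraries, and over 12 for replicate 3 of WT CD. Nothing says that pools of a group came from separate cohorts, so p-values measure the spread between pools. The script was tested on simulated data. The 55 gene lists (784 entries) came from general knowledge and were chosen with earlier results of these data known, as was the comparison. Genes were named by rule: the 15 largest estimates per direction (protein-coding, called, mean of at least 10 CPM, WT CD libraries at most 2 times apart, same sign with 12 libraries), up to 4 per list by adjusted p, and 6 genes called in opposite directions on the diets. Families by symbol and further genes were chosen after their values were seen. Promoters are RefSeq's for GRCm38.p6, and 73 of 99 named genes matched. Alternatives were other scalings and filters, protein-coding genes, other WT CD libraries, a replicate block, DESeq2 1.42.0, limma 3.58.1 and leaving out each library.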

Additional observations from a re-analysis of the deposited data

Results flagged for a closer look

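The interaction is itself a test of the difference of the genotype effect between the diets, so every gene it called counts here, with 61 genes whose effect was higher and 660 whose effect was lower on HFD than on CD (edgeR). Among named genes, the positive log2 estimates were Phpt1 1.38, Tmem159 1.35, Gpd2 1.33, Pdk2 1.25, Kdsr 1.25, Plpp6 1.24, Cox6c 1.18, Smim26 1.15, Pex11a 1.13, Ndufa5 1.05, Osbpl1a 1.01, Mapk8ip1 1.00, Suclg2 0.97, Ndufv2 0.90 and Gpat4 0.93. The negative estimates of the 15 genes chosen by size were Itgad -6.12, Gpnmb -6.01, Mmp12 -5.86, Dhrs9 -5.68, F7 -5.57, Rgs1 -5.38, Adam8 -5.34, Stra6l -5.33, Vsig8 -5.27, Itgax -5.09, Slc37a2 -5.04, Il7r -4.99, Tlr13 -4.95, Tnip3 -4.94 and Cd200r1 -4.84. Those of macrophage and digestive genes were Cd68 -4.29, Spi1 -3.28, Tyrobp -3.53, Fcer1g -2.44, Trem2 -4.50, Atp6v0d2 -5.04, Ocstamp -4.10, Tnfrsf11a -2.99, Ctsk -3.36 and Ctss -3.96. Those of chemokines, cytokines and complement were Ccl2 -3.15, Ccl3 -4.25, Ccl9 -3.41, Ccl22 -2.18, Il1rn -5.63, Tnf -2.73, C3ar1 -3.93, C3 -1.68, C5ar1 -2.96 and C1qb -2.21. NF-kB and inflammasome genes had Ikbke -1.76, Nfkbie -1.18, Rel -1.80, Casp1 -2.49, Aim2 -2.26 and Nlrc4 -2.66. Matrix genes had Fn1 -2.71, Timp1 -3.50, Col1a1 -1.91, Col1a2 -1.67 and Timp2 -1.53 (not called with 12 libraries, adjusted p = 0.0563). Cell cycle genes had Aurkb -2.55, Cdk1 -2.67, Tk1 -2.91 and Bub1 -3.42. With 12 libraries, Itgad, Ccl22, Nfkbie, Rel, Nlrc4, Aurkb, Cdk1 and Bub1 were not called either, and Bub1 had the opposite sign, at 1.68. Of the positive genes above, Phpt1, Pdk2, Osbpl1a, Mapk8ip1 and Ndufv2 were called there and the others were not. The genes with opposite genotype calls on the diets had Svep1 -2.33, Ubd -4.10, Hdac9 -1.94, Gm28187 -4.24 (near the limit of detection in WT CD), Ccn5 -3.63 and Hmcn2 -3.0. Most of these calls were lost when replicate 2 of WT CD, replicate 2 of WT HFD, any replicate of HoipA-KO CD, or replicate 1 or 3 of HoipA-KO HFD was left out.

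Replicate 3 of WT CD, which the comparisons do not use, held 929 genes at over 8 times their level in every other library, and its markers of testicular germ cells summed to 12620 CPM.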

How the results depend on the processing

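The 61 positive and 660 negative calls became 68 and 622 with DESeq2's size factors, 42 and 774 with library size, 54 and 531 without a filter, 80 and 666 with at least 10 counts in every library, and 58 and 565 with protein-coding genes. All 12 libraries gave 14 and 488, replicates 1 and 3 as WT CD 8 and 318, and replicates 2 and 3 gave 1668 and 1882. DESeq2's Wald test gave 944 and 1470, limma voom with 12 libraries 26 and 103, an adjusted p under 0.01 gave 0 and 2, and leaving out genes over 2 times apart in WT CD gave 34 and 630. Leaving out 1 library at a time gave 0 to 1788 positive and 1 to 1880 negative calls. The genotype effect on HFD had 503 calls with 12 libraries, against 2179. A block on the replicate number gave 14 and 363, and 3 and 334 with 12 libraries. Correlations of deviations between same-numbered libraries ran from -0.375 to 0.509, and were 0.15 to 0.509 for the 3 pairs of HoipA-KO CD and HFD, so the numbers did not pair all groups. Rnf31 reversed to -0.091 and -0.098 with replicates 1 and 3 or 2 and 3 as WT CD. Adipoq ran from -0.74 to 0.21 over the fits without 1 library and was above 0 in 3 of them, at 0.023, 0.035 and 0.21 without replicate 2 of HoipA-KO HFD, 3 of HoipA-KO CD or 2 of WT CD. Bub1 reversed to 1.68 with 12 libraries, 2.23 and 2.20 with replicates 1 and 3 or 2 and 3, and 0.45 with 12 libraries and the replicate block. The cause was not tested. Leaving 1 library of WT CD out assumes that the lone one varies like the other groups. The median over all genes, -0.01, moved to 0.157 without a filter and 0.149 with DESeq2. Depth sets a floor of at most 0.0983 CPM.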

Other observations

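Mast cell genes were uncalled, with 0 of 10 past the threshold in edgeR, 7 at an unadjusted p under 0.05 and 7 called by DESeq2, although their median of -4.37 was the lowest of the 55 lists. Cma1, a chymase of mast cell granules, had 1.69 and 1.16 CPM in WT CD, 2.88, 16.4 and 39.8 CPM in WT HFD, 158, 140 and 135 CPM in HoipA-KO CD and 78.5, 202 and 133 CPM in HoipA-KO HFD (-3.86, SE 1.12, adjusted p = 0.0881). Mcpt4, another granule protease, had 2.10, 17.9 and 51.2 CPM in the WT HFD pools (-4.65, SE 1.31, adjusted p = 0.0834). Both genes differed by over 10 times among the WT HFD pools.

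Other immune lists lay nearer to 0. T cell genes had 0 of 10 called by edgeR or DESeq2, with 1 at an unadjusted p under 0.05 and a median of -0.54, and their summed level was 10.8 and 14.2 CPM in WT CD and 14.3 to 34.8 CPM elsewhere. Interferon-stimulated genes had 0 of 17 called by edgeR, 2 at an unadjusted p under 0.05 and 2 called by DESeq2, with a median of 0.09. Their shares at an unadjusted p under 0.05 and by DESeq2 were below those of all genes. Siglecf, a lectin of eosinophils and of some macrophages, was called at low level, with 0 and 0.0634 CPM in WT CD, 0.36 to 0.783 CPM in WT HFD and 0.417 to 1.59 CPM in HoipA-KO (-4.73, SE 1.09, adjusted p = 0.0462, and 0.0648 with 12 libraries).

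Ucp2, an uncoupling protein of macrophages and other cells, had 173 and 102 CPM in WT CD, 412, 668 and 975 CPM in WT HFD, 1178 to 1263 CPM in HoipA-KO CD and 892 to 1496 CPM in HoipA-KO HFD (-2.33, SE 0.51, adjusted p = 0.0405). Mcub, a subunit of the mitochondrial calcium uniporter, had 4.06 and 3.04 CPM in WT CD, 12.5, 16.7 and 22.9 CPM in WT HFD and 29.4 to 49.1 CPM in HoipA-KO (-2.52, SE 0.37, adjusted p = 0.0256), and its channel subunit Mcu had -0.84 (SE 0.20, adjusted p = 0.0479, and 0.177 with 12 libraries). These 3 genes were picked after their values were seen.

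Cytosolic ribosomal protein genes had 81 of 82 estimates above 0 with a median of 0.40 and 1 called, Rpl3l. It was at 29.8 CPM in replicate 2 of WT CD and at most 0.302 CPM in the other 10 libraries. With all 12 libraries Rpl3l was not called (adjusted p = 0.0967, edgeR). With replicates 1 and 3 as WT CD, 17 of the 82 were above 0 and the median was -0.13.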
